A study of Mus musculus with 2 samples.

Results

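The genes described here are 9 sensors and transcription factors of the unfolded protein response (UPR) and of the CREB3 family: Ern1, Eif2ak3, Atf6, Atf6b, Xbp1, Atf4, Creb3, Creb3l1 and Creb3l2. They were taken by symbol from the 32285 genes of the deposited count tables, and all 9 were found. Their mRNA was measured by droplet single-cell RNA sequencing of sorted endothelial cells from mouse lymph nodes, after depletion of CD45-positive leukocytes. Each of 2 libraries mixed 4 pools of cells that carried different hashtags, which are antibody-borne barcodes read out with the RNA. HT4 marked wild-type (WT) peripheral nodes, HT5 WT mesenteric nodes, HT6 Xbp1-KO peripheral nodes and HT7 Xbp1-KO mesenteric nodes. Tamoxifen was given to the WT controls as well as to the Xbp1-KO mice. The labels used here name neither the Cre driver, the deleted part of Xbp1 and the cells in which it is deleted, nor the strain, the age and the number of animals in a pool. Every combination of genotype and tissue therefore has n = 2 pools, 1 per library, and the p-values measure the spread between pools that may share animals.

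The UPR matches the folding capacity of the endoplasmic reticulum (ER) to the load of new protein. IRE1, the product of Ern1, cuts a short intron out of Xbp1 mRNA in the cytoplasm, and the cut mRNA codes for the active factor XBP1, which raises genes of protein import, folding and degradation at the ER. PERK, the product of Eif2ak3, slows general translation while Atf4 mRNA is translated more, whereas ATF6, ATF6B and the CREB3 factors are membrane-bound precursors that are cut free by Golgi proteases. CREB3 factors are known for genes of vesicle coats and secretion. High endothelial cells (HECs) line the venules through which lymphocytes enter lymph nodes, and they make sulphated mucin-like ligands for L-selectin in quantity.

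Xbp1 (ENSMUSG00000020484) lies on the plus strand of chromosome 11, from 5520659 to 5525893 in GRCm38 (GENCODE M21). The stretch that IRE1 removes is printed because the UMI counts cannot resolve it. The letters CNGCAG, which IRE1 cuts between the G of CNG and the C of CAG, occurred 7 times in the 2129-base transcript Xbp1-201, and 2 pairs of them stood 26 bases apart, the length of the removed stretch. The pair within exon 4 of 5 is the known site. It is shown at chr11:5524257-5524326, plus strand, with the removed bases in capitals.
Xbp1: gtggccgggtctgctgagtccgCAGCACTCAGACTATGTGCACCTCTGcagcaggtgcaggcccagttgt
The capitals end 1289 bases before the 3′ end of the transcript. Counts per gene add the cut and the uncut mRNA, so all Xbp1 levels given here are of total mRNA and say nothing of splicing.

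Promoter windows from 250 bases before to 50 bases after the start were present for 7 of the 9 genes (RefSeq, GRCm38.p6); Creb3l1 and Atf6 were not matched. The first listed window of each gene was searched on both strands for 4 elements of the pathway, and other starts of these genes were not. The ER stress element (ERSE), its second form (ERSE-II), the UPR element TGACGTGG and the cAMP response element TGACGTCA were found in 0 of 7. Of all 32851 windows of the same length, 0.119%, 0.0365%, 0.676% and 1.79% hold them. The shorter core ACGTGG, which lies within the UPR element, was found in Creb3 alone among the 7, and 8.31% of all windows hold it. The stretch around it is shown at chr4:43562525-43562584, plus strand, with the core in capitals.
Creb3: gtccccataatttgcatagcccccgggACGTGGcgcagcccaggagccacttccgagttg
Such a match is a description of letters. The Creb3 window, from 43562408 to 43562707, lies wholly within the gene as annotated by GENCODE, whose start is further upstream. Creb3 (ENSMUSG00000028466, chromosome 4, 43562332 to 43567060, plus strand) also overlaps Tln1 by 360 bases and Gba2 by 133 bases, both on the opposite strand. The other genes of the set lie apart from any other gene listed in the files. Creb3l1 (ENSMUSG00000027230) is on chromosome 2, Creb3l2 (ENSMUSG00000038648) and Eif2ak3 (ENSMUSG00000031668) on chromosome 6, and Atf6 (ENSMUSG00000026663) on chromosome 1. Atf6b (ENSMUSG00000015461) is on chromosome 17, Ern1 (ENSMUSG00000020715) on chromosome 11 and Atf4 (ENSMUSG00000042406) on chromosome 15.

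After filters, 9275 cells were kept from 33024170 UMIs in library 1 and 14744778 in library 2, and 3 cell barcodes occurred in both. Cells were assigned to a subset by how many of its marker genes had a UMI: 359 HEC, 217 arterial, 3076 capillary, 112 venous and 3125 lymphatic cells, with 2082 left ungated and 304 of other types. Such a count of detected markers depends on depth, and the median was 8858 UMIs per HEC and 2652.5 per capillary cell. Unsupervised clusters named from the same markers held 342 of the 359 HECs, 204 of the 217 arterial, 2901 of the 3076 capillary and 3119 of the 3125 lymphatic cells. Of the 112 venous cells, 65 lay in a venous cluster, 27 in capillary and 18 in HEC clusters. In the other direction, the arterial cluster had 685 cells, of which 154 were gated as capillary and 323 were ungated. The HEC cluster had 489 cells, of which 123 were ungated. UMIs were summed per library, pool and subset, and levels are given as CPM, the share of a sum's UMIs scaled to 1000000; they count 3′ ends and are not divided by gene length. Sums of fewer than 5 cells were left out, which removed the venous WT peripheral sum of library 2 (1 cell). The 4 peripheral HEC sums held 6 to 29 cells, against 51 to 107 cells in the mesenteric ones. The 8 HEC markers summed to 9121 to 233813 CPM in WT and 24337 to 229176 CPM in Xbp1-KO HEC sums, against at most 5865 CPM in any sum of another subset. The lowest, 9121 CPM, was the WT peripheral sum of library 1 (8 cells). The genotype values of members in HECs, apart from Creb3, are therefore given without that sum too. So are the called differences of members between WT HECs and other subsets. This alternative was added after the data had been seen. Xist and Ddx3y were opposite between genotypes within each library and swapped between libraries: the Xist level of WT pools was 4.48 CPM in library 1 and 779 CPM in library 2, and that of Xbp1-KO pools 929 CPM and 0.727 CPM. A genotype difference within 1 library therefore cannot be told apart from a difference in sex, while the mean over both libraries crosses the 2. Plasma cells are rich in Xbp1, and in all HEC sums together their markers Jchain, Tnfrsf17, Mzb1 and Sdc1 had 0, 0, 1 and 5 UMIs and Igkc 46. Together the plasma cell markers ranged from 0 to 44.0 CPM in WT and from 0 to 18.5 CPM in Xbp1-KO HEC sums. The 44.0 CPM were in the WT mesenteric sum of library 1, which also had the highest Xbp1 of the HEC sums. Leukocyte markers summed to 4.93 to 52.7 CPM in WT and 4.24 to 106 CPM in Xbp1-KO HEC sums. The part of plasma cells and leukocytes in the HEC results was not tested.

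Xbp1, the targeted gene, was lower in the Xbp1-KO pools of every subset, at 50.5% to 63.5% of the WT mean, and the difference passed the test in lymphatic cells. UMIs from 3′ ends remained in all Xbp1-KO sums. Because the deleted part is not given, the remaining level does not measure how complete the deletion was, and in sums of cells a loss in some cells and a partial loss in all cannot be told apart. In HECs, the WT sums of library 1 stood at 290 (peripheral) and 522 CPM (mesenteric) and the Xbp1-KO sums at 216 and 223 CPM. In library 2 the WT values were 356 and 417 CPM, and the Xbp1-KO values 79.8 CPM, from 3 UMIs, and 343 CPM. Each Xbp1-KO sum was below the WT sum of its own library and tissue in 4 of 4 pairs, but the mesenteric Xbp1-KO sum of library 2 lay within the WT range. The fitted difference was -0.71 ± 0.31 (log2, SE; adjusted p = 1.0 and unadjusted p = 0.0272 in edgeR). It came to -1.53 without library 1 and to -0.42 without library 2, each without a test, and to -0.85 ± 0.36 (adjusted p = 0.890) when the WT peripheral sum of library 1 alone was left out.

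The lymphatic WT sums of library 1 held 123 (peripheral) and 110 CPM (mesenteric) of Xbp1, and those of library 2 held 106 and 55.6 CPM. The Xbp1-KO sums were close together, at 48.8, 51.6, 48.9 and 49.9 CPM in the same order. The groups did not overlap, although the mesenteric WT sum of library 2 came near the Xbp1-KO values. Xbp1 fell by 1.09 ± 0.16 on the log2 scale (adjusted p = 0.0433), and it was the single gene called of 10335, which is 0.00968% of those tested; 608 had an unadjusted p below 0.05. A fit that blocks on the library gave -1.07 ± 0.14 (adjusted p = 0.00132; 0.358% of genes called). The call did not hold in DESeq2, which gave Xbp1 no adjusted p and called 3 other genes, Rgs2, Atf3 and S100a10, nor with clusters in place of the gate (adjusted p = 0.185), nor with sums scaled by their total UMIs in place of TMM, the scaling of the fits (-1.07 ± 0.16, adjusted p = 0.0634). The value without library 1 was -0.65 and without library 2 -1.24.

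Capillary cells had the WT values 144 and 198 CPM in library 1 and 182 and 246 CPM in library 2, with the mesenteric pool the higher in both. Their Xbp1-KO values were 87.8 and 110 CPM, then 115 and 126 CPM, and all 4 were below every WT value. The difference of -0.75 ± 0.15 missed the threshold in the fit without a block (adjusted p = 1.0, unadjusted p = 0.0003), in which edgeR called 0 of 9216 genes (0%), 215 had an unadjusted p below 0.05, and DESeq2 called 0. With the library as a block, Xbp1 fell by 0.77 ± 0.09 (adjusted p = 0.00388) and was 1 of 4 genes called (0.0434%), beside Btg2, Hspa1a and Hspa1b.

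In venous cells the 3 WT sums held 211, 303 and 390 CPM of Xbp1 and the 4 Xbp1-KO sums 125, 171, 162 and 150 CPM, without overlap. The venous difference was -0.82 ± 0.44 (adjusted p = 1.0; 0% of 2070 genes called, 87 with an unadjusted p below 0.05, and 0 in DESeq2). Arterial cells had 105 and 158 CPM in the WT pools of library 1 and 111 and 213 CPM in library 2, against 50.9, 75.3, 120 and 127 CPM in the Xbp1-KO pools. These groups overlapped, 3 of 4 pairs were lower, and the difference of -0.50 ± 0.39 did not pass (adjusted p = 0.993; 0% of 1667 genes called, 69 with an unadjusted p below 0.05, and 0 in DESeq2). Without library 2 the arterial value was -1.03 and without library 1 it was -0.31. In 1 fit over all subsets, added after the data had been seen, the Xbp1 difference of lymphatic minus capillary cells was -0.34 ± 0.26 and that of HECs minus capillary cells 0.08 ± 0.28. The values of arterial and venous minus capillary cells were 0.10 ± 0.42 and -0.15 ± 0.42. None of the 4 passed (0% of 7616 genes called in 3 of the comparisons and 0.0263% in the arterial one), so the loss of Xbp1 mRNA was not shown to differ between subsets.

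**Figure D1:**
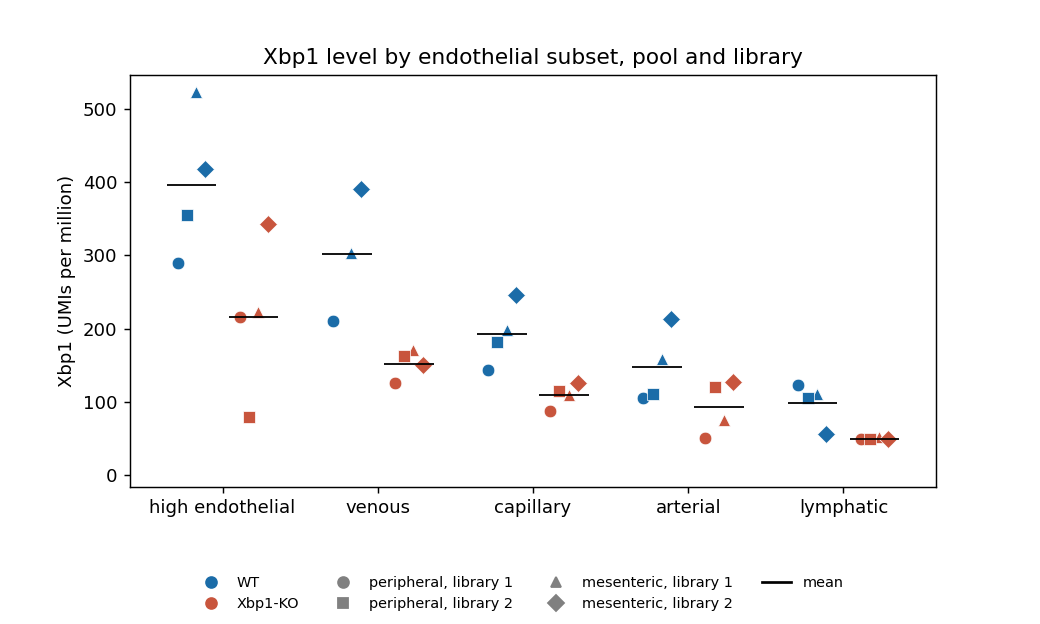
Xbp1 level (CPM, linear axis) in each sum of cells by endothelial subset, with WT in blue, Xbp1-KO in red, marker shapes for tissue and library, and a black line at the mean of each group. HEC sums in WT pools reach from 290 to 522 CPM, and the 4 Xbp1-KO lymphatic sums lie between 48.8 and 51.6 CPM.

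Among WT cells, Xbp1 was highest in HECs (396 ± 98.8 CPM, SD, n = 4 sums), followed by venous (301 ± 89.6, n = 3), capillary (192 ± 42.3, n = 4), arterial (147 ± 50.04, n = 4) and lymphatic cells (98.6 ± 29.6, n = 4). Within pools, with library and pool as a block, 6622 genes and 7 of the 9 members were high enough to test in WT cells; Creb3l1 and Eif2ak3 were not. Xbp1 was higher in HECs than in lymphatic cells by 2.35 ± 0.20, than in arterial cells by 1.84 ± 0.27 and than in capillary cells by 1.46 ± 0.19 (log2, SE, all past the threshold in edgeR). Without the WT peripheral HEC sum of library 1 these were 2.48, 1.90 and 1.52, all past it. Capillary and venous cells exceeded lymphatic cells by 0.89 ± 0.18 (adjusted p = 5.7e-05) and 1.48 ± 0.29 (adjusted p = 0.000374). Neighbours in this order did not pass the threshold at the blood vessel end, where venous minus capillary cells had an adjusted p of 0.372 and arterial minus capillary cells one of 0.554. HECs minus venous cells gave 0.87 ± 0.30 (unadjusted p = 0.00404, adjusted p = 0.0739), and this difference passed with clusters in place of the gate, at 1.24 ± 0.34 (adjusted p = 0.0126). It also passed when the WT peripheral HEC sum of library 1 was left out, at 1.0 ± 0.29 (adjusted p = 0.0241). Over all alternatives its adjusted p ran from 0.0126 to 0.554. Arterial and lymphatic cells, 0.51 ± 0.26 apart, did not pass either (adjusted p = 0.164). Venous cells were few, and the fitted median over all genes was 0.12 for HECs minus venous and -0.18 for venous minus lymphatic cells.

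These WT comparisons call many genes, so the members' counts stand against a wide background. HECs and capillary cells differed in 3 of 7 members and in 27.9% of all genes, and HECs and arterial cells in 2 of 7 and 22.2%. Between HECs and lymphatic cells 1 of 7 members passed (32.2%), and between capillary and lymphatic cells 5 of 7 (44.2%). Arterial minus lymphatic cells had 1 of 7 (28.3%) and venous minus lymphatic cells 1 of 7 (15.3%). No member passed between HECs and venous cells (4.59%), arterial and capillary cells (6.63%), arterial and venous cells (5.01%) or capillary and venous cells (4%). The same fit in the Xbp1-KO pools, added after the data had been seen, placed Xbp1 in the same order: 2.79 ± 0.19 for HECs minus lymphatic cells (38.6% of 7627 genes called) and 1.12 ± 0.28 for HECs minus venous cells (adjusted p = 0.00415; 7.34%). Called members there numbered 4 for HECs minus lymphatic, 3 for HECs minus capillary (28.2%), 1 for HECs minus arterial (20.4%) and 1 for HECs minus venous cells. Capillary minus lymphatic cells had 5 (47.5%), arterial minus lymphatic cells 2 (25.9%) and venous minus lymphatic cells 1 (20%). No member passed for arterial minus capillary (6.88%), arterial minus venous (6.99%) or capillary minus venous cells (7.13%).

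The fitted differences between HECs and other subsets depend on the scaling. CPM divide by all UMIs of a sum, while the fits use TMM factors, which ran from 0.751 to 1.03 in WT and 0.662 to 1.12 in Xbp1-KO HEC sums, against 1.06 to 1.10 in WT lymphatic sums. Scaling by total UMIs instead, an alternative added after the data had been seen, moved the median over all genes by -0.34 for HECs minus capillary, -0.41 for HECs minus arterial, -0.43 for HECs minus lymphatic and -0.32 for HECs minus venous cells in WT pools. The share of higher genes among those called went from 48.2% to 22.2%, from 49.1% to 23%, from 45.9% to 19.1% and from 53% to 27.1% in these comparisons. Xbp1 remained higher in HECs than in lymphatic (1.94 ± 0.20), arterial (1.44 ± 0.27) and capillary cells (1.14 ± 0.19), all past the threshold. HECs minus venous cells then gave 0.55 ± 0.30 (adjusted p = 0.360) in WT and 0.73 ± 0.27 (adjusted p = 0.0853) in Xbp1-KO pools. The genotype differences of Xbp1 kept their sign in all 5 subsets, and the HEC value was -0.82 ± 0.32.

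Ern1, which encodes IRE1, had its lowest mean WT level in capillary cells. Capillary cells did not pass against arterial or venous cells, and 2 of the 4 arterial WT sums were at 0. The capillary WT level was 5.02 and 7.88 CPM in library 1 and 14.4 and 5.19 CPM in library 2. Its mean was 8.13 ± 4.39 CPM. Lymphatic WT sums held 30.1, 30.1, 22.1 and 34.0 CPM, all above the capillary ones. In HECs the mesenteric WT sums had 26.4 and 37.8 CPM, while the small peripheral sums had 0 and 28.4 CPM. Ern1 was higher in HECs than in capillary cells by 2.29 ± 0.45 (adjusted p = 8.3e-05) and higher in lymphatic than in capillary cells, with capillary minus lymphatic at -1.85 ± 0.37 (adjusted p = 1.1e-05). HECs and lymphatic cells did not separate (0.44 ± 0.39, 95% interval -0.32 to 1.20). Both passing differences recurred in the Xbp1-KO pools, at 1.99 and -1.52, and with total UMI scaling of the WT pools, at 1.95 and -1.94. Without the WT peripheral HEC sum of library 1, HECs minus capillary cells gave 2.35. Between genotypes Ern1 did not pass in any subset: its difference was 0.17 ± 0.70 in HECs (-0.22 ± 0.67 without the WT peripheral sum of library 1), 0.33 ± 0.40 in capillary and 0.07 ± 0.21 in lymphatic cells, the last with a 95% interval from -0.34 to 0.48.

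Eif2ak3, which encodes PERK, was sparse, with 480 UMIs over all 39 sums. Lymphatic WT sums held 21.2, 23.6, 17.4 and 18.5 CPM, and lymphatic Xbp1-KO sums ranged more widely, at 18.5, 10.0, 21.8 and 27.2 CPM. Capillary WT sums ranged from 3.61 to 17.3 CPM and lay below all lymphatic WT sums. HEC sums ranged from 0 to 26.4 CPM in WT and from 0 to 12.3 CPM in Xbp1-KO pools. The genotype difference was -0.09 ± 0.24 in lymphatic cells (95% interval -0.55 to 0.37) and -0.02 ± 0.41 in capillary cells, and neither passed.

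Atf4, the factor translated when PERK is active, had 6591 UMIs over all sums, where Xbp1 had 4049 and Creb3l2 4830. It was higher in capillary than in lymphatic WT cells by 0.75 ± 0.15 (adjusted p = 4.5e-05). Capillary WT sums stood at 303 and 187 CPM in library 1 and at 332 and 201 CPM in library 2, so that the peripheral pool was the higher in each. Lymphatic WT sums had 207 and 129 CPM, then 197 and 105 CPM, with the same order of tissues. No other pair of subsets passed for Atf4 in WT pools. In the Xbp1-KO pools the fit gave HECs minus lymphatic cells as 0.55 (adjusted p = 0.0112), a call that rests on the TMM scaling: with total UMI scaling it was 0.04 ± 0.18 (adjusted p = 0.858). In CPM the Xbp1-KO HEC sums of library 1 (191 and 140) lay below the lymphatic ones (208 and 169), and those of library 2 (266 and 252) above them (192 and 191). Atf4 with total UMI scaling was lower in WT HECs than in capillary cells by a value of -0.75 ± 0.18 (adjusted p = 0.000903; 35.3% of genes called) and than in arterial cells by -0.61 ± 0.22 (adjusted p = 0.0375; 27%).

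Between genotypes, Atf4 stood higher in Xbp1-KO than in WT HECs, without passing the test over all genes. HEC sums held 158 and 139 CPM in the WT pools of library 1 and 156 and 105 CPM in library 2. The Xbp1-KO sums held 191 and 140 CPM, then 266 and 252 CPM, each above its WT partner, the mesenteric sum of library 1 by under 1 CPM. The difference was 0.63 ± 0.31 (unadjusted p = 0.0462, adjusted p = 1.0). It came to 0.16 ± 0.26 with clusters in place of the gate, to 0.53 ± 0.36 when the WT peripheral sum of library 1 was left out, and to 0.70 without library 1 and 0.54 without library 2, the last 2 without a test. Venous sums showed 164, 160 and 106 CPM in WT against 195, 195, 284 and 309 CPM in Xbp1-KO pools, without overlap, and a difference of 0.65 ± 0.46 (adjusted p = 1.0). In lymphatic cells the difference was 0.26 ± 0.12 (unadjusted p = 0.0385, adjusted p = 0.812), in capillary cells 0.23 ± 0.15 and in arterial cells -0.06 ± 0.30. A list of 14 immediate early and heat shock genes that respond to tissue dissociation had estimates above 0 for 13 of 14 in HECs, 13 in venous, 14 in capillary, 14 in lymphatic and 11 in arterial cells. The median over all genes was 0.079, 0.038, 0.005, 0.009 and -0.009 in the same order. The summed level of that list had a median of 11251 CPM (range 7187 to 16581) in WT and 13366 CPM (8980 to 18796) in Xbp1-KO HEC sums. Its part in the Atf4 values was not tested.

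Atf6 and Atf6b, the sensors that are cut in the Golgi, were low. Atf6 stood at 46.7, 34.5, 45.8 and 15.4 CPM in lymphatic WT sums and at 21.97, 26.3, 23.4 and 25.97 CPM in capillary ones. It was higher in lymphatic cells, with capillary minus lymphatic at -0.57 ± 0.22 (adjusted p = 0.0295; -0.52 ± 0.22 and adjusted p = 0.0523 when the WT peripheral HEC sum of library 1 was left out of the shared fit), although the mesenteric WT sum of library 2 was below every capillary sum. HECs minus lymphatic cells gave -0.76 ± 0.39 for Atf6 in WT pools, which did not pass (adjusted p = 0.122), and -1.20 ± 0.39 with total UMI scaling, which did (adjusted p = 0.00777; 45.8% of genes called). In HECs Atf6 was below the filter for the genotype comparison, with 22 UMIs in WT and 29 in Xbp1-KO sums. Its genotype difference was 0.19 ± 0.20 in capillary and -0.26 ± 0.17 in lymphatic cells, and neither passed. The lymphatic value without library 1 was 0.18, of the opposite sign. Atf6b had 26.3 to 38.3 CPM in lymphatic and 21.6 to 38.1 CPM in capillary WT sums and passed between no pair of subsets, with capillary minus lymphatic at 0.01 ± 0.22 (95% interval -0.43 to 0.45). HEC sums of Atf6b were 52.7, 33.7, 14.2 and 27.9 CPM in WT and 25.4, 17.4, 0 and 18.2 CPM in Xbp1-KO pools, lower in 4 of 4 pairs. They rest on 43 and 36 UMIs, and the difference of -0.44 ± 0.62 did not pass; without the WT peripheral sum of library 1 it was -0.044 ± 0.86.

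Creb3l2, which is cut and released like ATF6 and acts on secretory genes, had its highest level in lymphatic cells. WT lymphatic sums held 229, 193, 243 and 120 CPM (197 ± 55.02, n = 4), against 93.5, 76.7, 77.5 and 57.1 CPM in capillary sums, and the 2 sets did not overlap. HEC WT sums held 79.1, 117, 85.3 and 98.6 CPM, of which 79.1 and 85.3 CPM lay within the capillary range and all 4 lay below every lymphatic sum. Creb3l2 was lower in capillary than in lymphatic cells by 1.26 ± 0.17, with an arterial minus lymphatic value of -1.33 ± 0.31 (adjusted p = 0.0002). It was higher in HECs than in capillary cells by 0.92 ± 0.23 (adjusted p = 0.00146) and than in arterial cells by 0.99 ± 0.34 (adjusted p = 0.0198); without the WT peripheral HEC sum of library 1 these were 0.97 and 1.05, both past the threshold. With total UMI scaling the capillary comparison gave 0.59 ± 0.22 (adjusted p = 0.0386), and the arterial one, at 0.58 ± 0.33, no longer passed (adjusted p = 0.196). HECs and lymphatic cells did not separate in WT pools (-0.35 ± 0.22, adjusted p = 0.238), whereas in the Xbp1-KO pools the value was -0.69 (adjusted p = 0.00674). With total UMI scaling HECs were lower than lymphatic cells in both, at -0.77 ± 0.22 (adjusted p = 0.00328) and -1.22 ± 0.22 (adjusted p = 1.5e-05; 54.1% of genes called). Whether these values differ between genotypes was not tested for this pair of subsets.

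The genotype difference of Creb3l2 was near 0 in lymphatic and capillary cells. Lymphatic Xbp1-KO sums were 228, 188, 204 and 173 CPM (198 ± 23.3, n = 4), inside the WT range, and the difference was -0.03 ± 0.13 with a 95% interval from -0.29 to 0.23. The capillary difference was -0.05 ± 0.17 (95% interval -0.38 to 0.29). In HECs the Xbp1-KO sums of 50.8, 93.3, 53.2 and 97.9 CPM were each below the WT partner, the last by under 1 CPM, and the difference of -0.31 ± 0.37 did not pass (-0.41 ± 0.42 without the WT peripheral sum of library 1).

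Creb3, which is expressed in many tissues, was low throughout. Capillary WT sums held 38.3, 33.6, 57.7 and 27.7 CPM and lymphatic ones 31.6, 41.1, 37.1 and 34.0 CPM, with full overlap. No pair of subsets passed in WT pools; in the Xbp1-KO pools the fit gave HECs minus lymphatic cells as 0.72 (adjusted p = 0.0269) and capillary minus lymphatic cells as 0.62 (adjusted p = 0.00683). Neither call held with total UMI scaling, at 0.21 ± 0.27 (adjusted p = 0.524) and 0.47 ± 0.20 (adjusted p = 0.0535). The Xbp1-KO HEC sums of 38.1, 24.6, 26.6 and 50.3 CPM overlapped the lymphatic ones, and 2 of the 4 were lower than the lymphatic sum of their own pool. Lymphatic Xbp1-KO sums were 29.6, 33.0, 36.7 and 31.0 CPM, below the WT partner in 4 of 4 pairs, with a difference of -0.21 ± 0.16 that did not pass. The capillary difference of 0.25 ± 0.19 had the opposite sign and did not pass either. In HECs, with the library as a block, the difference was 0.67 ± 0.68 (unadjusted p = 0.286 in edgeR) and did not pass. The WT peripheral HEC sum of library 1 held 0 UMIs of Creb3, and a value without that sum is not given. Creb3l1, a factor known from bone-forming and secretory cells, had 95 UMIs in all sums, 77 of them in lymphatic cells at 3.09 to 8.69 CPM. Lymphatic sums also held the most UMIs, 17142175 over all genes. Venous sums had 5 UMIs of Creb3l1 in 481197. HECs had 1 UMI of Creb3l1 in the WT sums and 0 in the 1963752 UMIs of the Xbp1-KO sums, which allows up to 1.53 CPM for counting error alone. It was below the low-count filter in every comparison of marker-gated cells; with clusters in place of the gate it was tested in lymphatic cells and was not called.

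**Figure D2:**
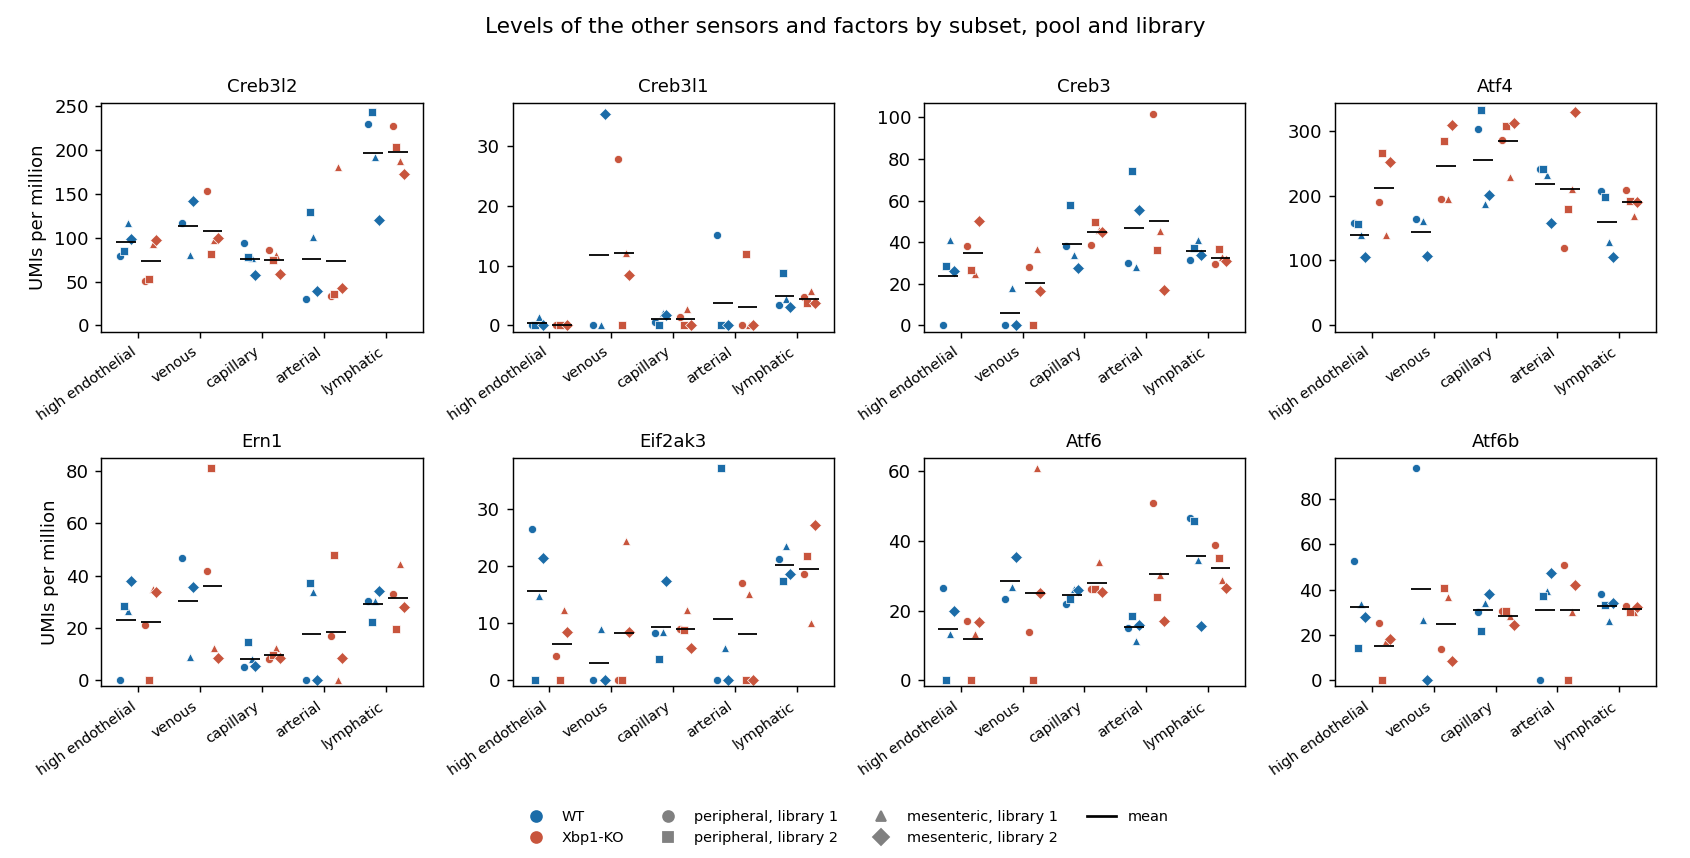
Levels of the other 8 genes (CPM, linear axes that differ between panels) by subset, with WT in blue, Xbp1-KO in red, marker shapes for tissue and library, and a line at each mean. Creb3l2 is highest in lymphatic cells in both genotypes, and points at 0 come mostly from the small HEC, venous and arterial sums.

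Across the 5 genotype comparisons, 6 members could be tested in HECs, 8 in capillary, 8 in lymphatic, 3 in venous and 2 in arterial cells. Lymphatic Xbp1 was the only member called. In HECs 1 of 6245 genes was called, 0.016%, which was Cxcl9, an interferon-induced chemokine, at 2.00, and 0 of 7868 were called without the WT peripheral sum of library 1 and 0 of 6245 with total UMI scaling; 258 genes had an unadjusted p below 0.05, among them Xbp1 and Atf4, and DESeq2 called 0. No member's genotype effect was called as different between tissues in any subset (0% of genes in all 5, and 0 in DESeq2). The nearest were Atf4 in lymphatic cells, at 0.62 ± 0.23 (mesenteric minus peripheral effect; unadjusted p = 0.0178), and in capillary cells, at 0.63 ± 0.29 (unadjusted p = 0.0494).

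**Figure D3:**
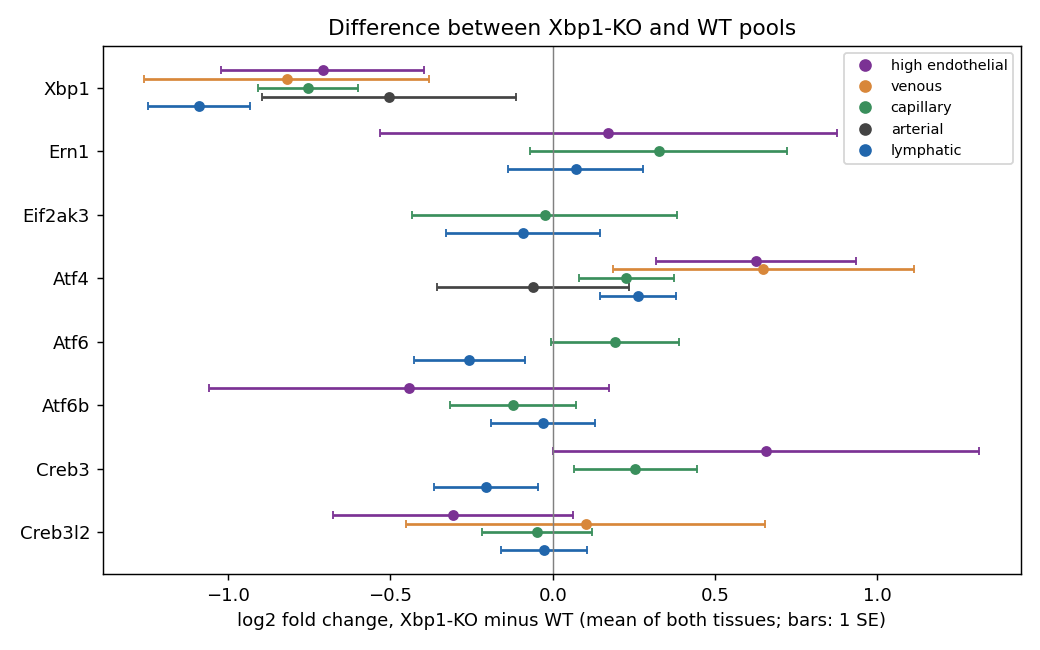
Log2 fold change of Xbp1-KO minus WT pools (mean of both tissues) for the 8 members that could be tested, 1 point per subset with bars of 1 SE. Xbp1 lies between -1.09 and -0.50 in the 5 subsets, and the bars of most other members reach 0.

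Between tissues, Atf4 was the member with the clearest difference, and it depended on the library block. Over both genotypes, mesenteric minus peripheral was -0.41 ± 0.15 in capillary cells (adjusted p = 0.343; 0.944% of genes called) and -0.38 ± 0.12 for the lymphatic sums (adjusted p = 0.0796; 4.85%). Blocking on the library, Atf4 was lower in mesenteric cells in both, by values of -0.41 ± 0.09 (adjusted p = 0.0238; 3.59%) and -0.37 ± 0.10 (adjusted p = 0.0178; 10.4%). In WT pools alone, again with the block, the values were -0.73 ± 0.13 in capillary (adjusted p = 0.0156; 1.42%) and -0.68 ± 0.15 among lymphatic sums (adjusted p = 0.0105; 3.59%). The Xbp1-KO sums did not all follow: capillary cells had 229 CPM in mesenteric against 287 CPM in peripheral sums of library 1 and 313 against 307 CPM in library 2, and lymphatic cells 169 against 208 CPM and 191 against 192 CPM. In WT pools without the block Atf4 did not pass, with 0.141% of genes called in capillary and 0.793% in lymphatic cells. Without the block 0 members were called in HECs (0.496% of genes), arterial (0.12%), capillary, venous (0.145%) and lymphatic cells. DESeq2 called 21, 2, 88, 1 and 306 genes in the same order of subsets. Xbp1 was at 0.63 ± 0.31 in HECs (adjusted p = 0.568), 0.34 ± 0.15 in capillary and -0.05 ± 0.16 in lymphatic cells. Lymphatic Atf6 and Creb3l2 were at -0.46 ± 0.17 and -0.32 ± 0.13, and neither passed. With total UMI scaling and no block, lymphatic Atf4 passed at -0.45 ± 0.12 (adjusted p = 0.0416; 4.95% of genes called). The summed level of the 14 dissociation genes was also lower in the mesenteric than in the peripheral WT sums, at 17925 against 25390 and 23497 against 27773 CPM in capillary and 13416 against 21082 and 17374 against 22194 CPM in lymphatic cells. In the Xbp1-KO pools it was higher in the mesenteric sum in 3 of 4 pairs. Its part in the tissue difference of Atf4 was not tested.

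Genes downstream of the sensors were read through lists of textbook targets. Counts of called list genes stand against the share of all genes called in the same comparison, 27.9% for HECs minus capillary cells and 44.2% for capillary minus lymphatic cells. Of 20 XBP1 targets, which serve protein import and folding at the ER, 13 were higher and 0 lower in WT HECs than in capillary cells, with a median difference of 0.81 against -0.03 over all genes. With total UMI scaling 8 were higher and 0 lower, with a median of 0.48 against -0.37 over all genes (35.3% called), and without the WT peripheral HEC sum of library 1 the counts were 13 and 0. Sec61b, a subunit of the translocon, was higher by 1.48 ± 0.17, and Edem2, which helps to remove misfolded glycoproteins, by 1.22 ± 0.31. The chaperone Hyou1 and its ER partner Sdf2l1 were both higher by 1.04, with SEs of 0.33 and 0.27; with total UMI scaling Hyou1, at 0.71 ± 0.33, no longer passed (adjusted p = 0.0941). Against arterial cells 10 of 20 were higher (median 0.82; 22.2% of all genes called), against lymphatic cells 5 (median 0.24; 32.2%), led by Sdf2l1 at 1.25 ± 0.28, and against venous cells 2 (4.59%). Total UMI scaling gave 4, 2 and 2 higher, where 27%, 45.8% and 5.57% of all genes were called. Against lymphatic cells 2 were lower with that scaling, and the median turned to -0.20. Capillary minus lymphatic cells had 0 higher and 10 lower of 20, near the 44.2% of all genes called there, with a median of -0.38 against -0.02 over all genes, among them Sec11c of the signal peptidase at -1.28 ± 0.18 and Hyou1 at -1.17 ± 0.23.

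ATF6 targets, largely ER chaperones, had 6 of 13 tested members higher and 0 lower in HECs than in capillary cells (median 0.58; 27.9% of all genes called). Calr, Manf and Hspa5 were higher by 0.97 ± 0.20, 0.95 ± 0.19 and 0.87 ± 0.18. Capillary minus lymphatic cells had 1 higher and 9 lower (median -0.61; 44.2% of all genes called), with Hspa5, the chaperone BiP, at -0.98 ± 0.16, Canx at -0.89 ± 0.15 and Hsp90b1 at -0.84 ± 0.17. Against lymphatic cells, HECs had 1 of 13 higher, Manf at 0.61 ± 0.19, where 32.2% of all genes were called. The ATF6 list with total UMI scaling had 4 higher and 1 lower in HECs than in capillary cells (35.3% of all genes called). Against lymphatic cells it had 0 higher and 4 lower (45.8%), with Manf at 0.20 ± 0.18. Lists for XBP1 and ATF6 share 2 genes.

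PERK and ATF4 targets were called in both directions. HECs minus capillary cells had 1 higher and 3 lower of 10 tested (27.9% of all genes called): Ddit4, an inhibitor of mTORC1 signalling, was at -1.80 ± 0.31, the amino acid transporter subunit Slc3a2 at -0.69 ± 0.19 and the tRNA synthetase Wars at -0.67 ± 0.23. The higher one was Vldlr, with 31 UMIs in WT HECs and 2 in WT capillary cells. Capillary minus lymphatic cells had 4 higher and 4 lower (44.2% of all genes called), with Ddit4 at 2.27 ± 0.20 and Atf5, a factor close to ATF4, at -1.84 ± 0.29. Stc2 had 358 UMIs in WT lymphatic cells, 2 in capillary cells and 0 in HECs. Of the dissociation list, 1 was higher and 12 were lower in HECs than in capillary cells (median -0.81), with Nr4a1 at -2.64 ± 0.35 and Hspa1a at -1.95 ± 0.28. Its part in these list values was not tested.

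CREB3 family targets, vesicle coat and cargo genes, had 2 of 12 higher in HECs than in capillary cells, below the 27.9% of all genes called there: the COPII coat genes Sec23b at 1.04 ± 0.30 and Sec31a at 0.78 ± 0.22. Capillary minus lymphatic cells had 1 higher, Herpud1 at 0.67 ± 0.18, and 3 lower of 12, among them Sec24d at -1.07 ± 0.25, and this count is also below the 44.2% of all genes. With total UMI scaling 0 were higher and 1 lower in HECs than in capillary cells (35.3% of all genes called). Sec23b and Sec31a, at 0.71 ± 0.30 (adjusted p = 0.0667) and 0.44 ± 0.23 (adjusted p = 0.122), did not pass with that scaling. Between HECs and lymphatic cells 0 of 12 passed (32.2% of all genes), and the nearest was Sec23b at 0.73 ± 0.30 (adjusted p = 0.0578). Of 9 other genes of the UPR machinery, 3 were higher and 1 lower in HECs than in capillary cells (27.9% of all genes called), including Sil1, a nucleotide exchange factor of BiP, at 1.34 ± 0.36. The machinery gene Rtcb, the ligase that joins the cut Xbp1 mRNA, was higher by 0.76 ± 0.23 (0.42 ± 0.23 with total UMI scaling, adjusted p = 0.153), and the antioxidant factor Nfe2l2 was lower, at -1.18 ± 0.26.

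In the genotype comparisons 0 genes of any of these lists were called without a block, and DESeq2 called 1, Atf3. XBP1 targets had estimates below 0 for 17 of 20 in HECs (median -0.35 against 0.08 over all genes), 18 of 20 in lymphatic cells (-0.16 against 0.01) and 14 of 20 in capillary cells (-0.08 against 0.00). In HECs Sec61b ranged from 528 to 673 CPM in WT and from 266 to 367 CPM in Xbp1-KO sums, without overlap, at -0.80 ± 0.28 (unadjusted p = 0.00676, adjusted p = 1.0). Dnajc3, an ER co-chaperone, was at -1.24 ± 0.38 (unadjusted p = 0.00178, adjusted p = 1.0). In lymphatic cells Ostc, a subunit of the oligosaccharyltransferase, was at -0.56 ± 0.12 and Spcs2, of the signal peptidase, at -0.49 ± 0.12. Both fell with the library as a block, by 0.57 ± 0.12 (adjusted p = 0.0308) and 0.49 ± 0.10 (adjusted p = 0.0428), where 0.358% of all genes were called. With that block, Atf3 and Ppp1r15a of the PERK and ATF4 list rose in lymphatic cells by 0.66 ± 0.11 (adjusted p = 0.0136) and 0.51 ± 0.10 (adjusted p = 0.0252). Atf3 is also in the dissociation list, of which 5 genes rose with the block in lymphatic and 2, Hspa1a and Hspa1b, in capillary cells. The part of dissociation in the Atf3 and Ppp1r15a values was not tested. Hspa5 stood at 0.40 ± 0.16 in lymphatic cells and did not pass.

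**Figure D4:**
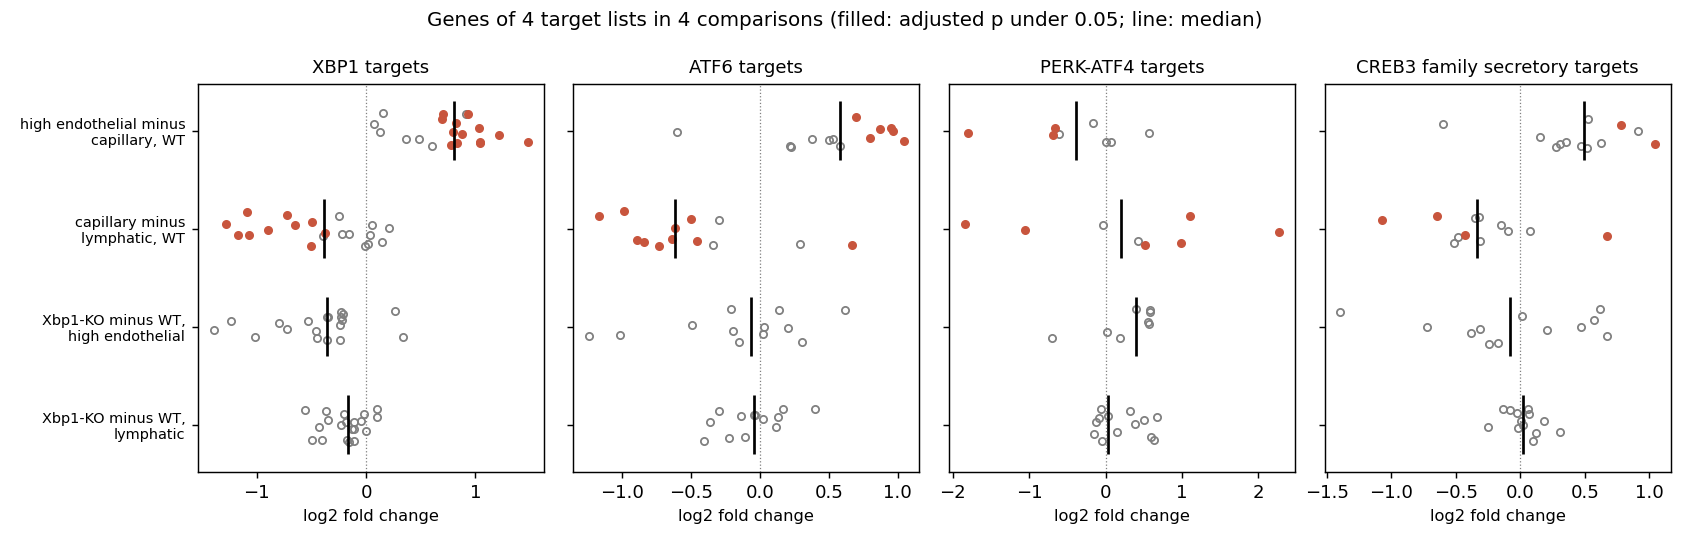
Log2 fold change of each tested gene (points, filled where the adjusted p is below 0.05) in 4 target lists and 4 comparisons, with a bar at the median over the whole tested list; Stc2, Vldlr and points without an SE are not drawn. With TMM scaling, XBP1 targets have medians of 0.81 for HECs minus capillary cells and -0.35 for Xbp1-KO minus WT in HECs.

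Lymphatic cells were divided further by markers of the node's lymphatic regions, and the levels over those cells are given with no test. Summed over WT pools, which themselves differ in lymphatic Creb3l2, its level was 160 CPM in floor-like, 225 CPM in ceiling-like and 228 CPM in collecting-like cells and 259 CPM in both Marco- and Ptx3-marked cells, the last 2 from 3 pools each and the others from 4. In the Xbp1-KO pools the same regions had 147, 240, 194, 275 and 256 CPM. Pools of floor-like cells ranged from 74.6 to 205 CPM in WT and from 112 to 159 CPM in Xbp1-KO cells, overlapping those of collecting-like cells at 48.2 to 277 CPM and 111 to 229 CPM. WT pools of ceiling-like cells ranged from 175 to 252 CPM, of Marco-marked cells from 252 to 336 CPM and of Ptx3-marked cells from 242 to 327 CPM, and Xbp1-KO pools from 180 to 253, 198 to 311 and 223 to 384 CPM, so no order of the regions is read from these values. Xbp1 in WT cells was at 126, 105, 95.9, 148 and 117 CPM in that order, and at 41.3, 58.1, 37.6, 55.6 and 50.2 CPM in Xbp1-KO cells. Creb3l1 had 8 UMIs (16.2 CPM) in WT and 10 UMIs (12.6 CPM) in Xbp1-KO Ptx3-marked cells. The exact 95% Poisson interval of the latter, 6.02 to 23.1 CPM, covers counting error only.

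The genes whose level followed Xbp1 most closely over the 19 WT sums, each centred on its pool, were Fnbp1l (Pearson r = 0.946), Sult1a1 (0.902), Gm525 (0.890), Iqgap1 (0.886) and Rpl26 (0.875), out of 6580 genes. Sums of 1 pool share a library, and the subsets differ in depth. Of the other members, 6 were high enough to be included, and none was near: r with Xbp1 was 0.083 for Atf4, 0.054 for Atf6b, 0.044 for Ern1, -0.033 for Creb3l2, -0.28 for Atf6 and -0.30 for Creb3. Creb3l2 was followed most closely by Psen2 (0.918), Etfa (0.891) and Fam124a (0.869), and Ern1 ranked 32 with r = 0.778.

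Among single cells of a pool, thinned to 2000 UMIs each, Xbp1 showed weak correlations with the other members, and in counts this sparse they are no finding. Over 8 lymphatic pools (3070 cells) the median r ran from -0.043 for Ern1 to 0.048 for Atf4, which was above 0 in 5 of 8 pools. The middle 90% of all genes lay between -0.046 and 0.038 there. In 8 capillary pools (2261 cells) the medians ran from -0.027 for Atf4 to 0.034 for Creb3, apart from Creb3l1 at 0.076 in the 3 pools where it had a UMI. HECs (4 pools, 308 cells) had medians from -0.040 for Atf4 to 0.081 for Eif2ak3, within the all-gene range of -0.112 to 0.120. Before thinning, Atf4 and Xbp1 in HECs had a median r of 0.187, above 0 in 4 of 4 pools, against -0.040 after it. The middle 90% of all genes in HECs lay between -0.106 and 0.119 before thinning. Arterial cells gave 2 pools with 78 cells. Over both pools the medians ran from -0.123 for Creb3 to 0.009 for Atf6b. Atf6 at -0.125 and Ern1 at 0.096 each had a value in 1 pool only. The middle 90% of all genes lay between -0.168 and 0.232 in arterial cells. Venous cells had no pool of 30 cells.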

How the data were processed

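UMI counts per gene and barcode were deposited as filtered matrices made with Cell Ranger, version 6.0.1 per the file headers and 6.1 per the submitters' processing notes, with build mm10. The hashtag counts deposited with them were assigned with HTODemux (Seurat 5.3.0, positive quantile 0.99), keeping barcodes with 1 hashtag, at least 500 genes and at most 10% mitochondrial UMIs; barcodes with several hashtags and doublets marked by Scrublet (65 and 4) were removed. A cell needed at least 4 markers for the HEC, arterial or capillary gate (of 8 each). The venous gate needed 3 of 7 and the lymphatic gate 2 of 6. Blood subsets also needed at least 2 blood markers and at most 1 lymphatic marker, and lymphatic cells had at most 1 blood marker. Arterial, capillary and venous cells had at most 2 HEC markers. Capillary and venous cells had at most 2 arterial markers, and arterial and capillary cells at most 2 venous markers. HECs had no such cap, and their median was 4 venous and 2 capillary markers. Lymphatic cells had none on HEC, capillary or venous markers, with a median of 2 of each. At the lowest marker count accepted were 108 HECs, and 234 cells were 1 marker short. UMI counts were summed per library, pool and subset and tested with edgeR 4.0.16 (quasi-likelihood test, TMM, two-sided, Benjamini-Hochberg adjustment over all genes, threshold 0.05), which was tested on simulated data. DESeq2 1.42.0, no low-count filter, another hashtag rule, clusters (scanpy 1.11.5) and leaving out each library were alternatives; scaling by total UMIs and leaving out 1 HEC sum were added after the data had been seen. The subset comparisons carry library and pool as a block. A library is 1 shared run of 4 pools, so it also served as a replicate block for genotype and tissue; deviations of pools of 1 library correlated at -0.027 to 0.159 in HECs, 0.091 to 0.251 in arterial, 0.154 to 0.350 in capillary and 0.024 to 0.184 in lymphatic sums. Of the gene IDs, 99.6% were in GENCODE M21. Intervals are estimates ± 1.96 SE; counting intervals and floors (3 counts) cover counting error only.

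The 9 genes, the markers and the target lists (20 XBP1, 14 ATF6, 19 PERK-ATF4, 14 CREB3 family, 15 machinery and 14 dissociation genes) were chosen with earlier results of these data known. Of each list, at most 4 called genes with the largest change were named, or the 2 with the smallest unadjusted p where none was called. The genes named as most like Xbp1 (5) and Creb3l2 (3) had the highest Pearson r of log2 CPM over WT sums.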

Additional observations from a re-analysis of the deposited data

How the results depend on the processing

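Xbp1 differences between genotypes kept their sign in every subset under every alternative that gave a value. With the library as a replicate block the capillary value was -0.77 and without the low-count filter -0.75, both past the threshold, while the lymphatic value no longer passed with clusters (-1.03), another hashtag rule (-1.10) or total UMI scaling (-1.07). Leaving out 1 library gave -1.53 to -0.42 in HECs, -1.03 to -0.31 in arterial, -0.79 to -0.75 in capillary, -0.78 in venous and -1.24 to -0.65 in lymphatic cells, with no test. Members called by genotype became 1 in capillary cells (block, no filter) and 0 in lymphatic cells (clusters, hashtag rule, DESeq2, total UMI scaling); by tissue 1 in capillary cells with the replicate block and 1 in lymphatic cells with it or total UMI scaling. Among WT subsets, dropping the pool block gave 1 called member for HECs minus arterial and 2 each for HECs and arterial minus lymphatic cells; clusters gave 1 for HECs minus venous, 3 for HECs minus lymphatic and 6 for arterial minus lymphatic cells. Arterial minus lymphatic cells had 2 without the filter and in DESeq2 and 3 with the hashtag rule. Leaving out 1 library gave 1 to 1 for HECs minus arterial, 3 to 5 for capillary minus lymphatic and 0 to 1 for venous minus lymphatic cells. The Xbp1-KO pools gave 1, 1, 4 and 2 for HECs minus arterial, HECs minus venous, HECs minus lymphatic and arterial minus lymphatic cells. Leaving out the WT peripheral HEC sum of library 1 gave 1 for HECs minus venous and 2 for arterial minus lymphatic cells. Total UMI scaling gave 3 for HECs minus lymphatic (45.8% of all genes called) and 2 for arterial minus lymphatic cells (28.4%). Over these alternatives in WT pools the number of all genes called moved as well. HECs minus arterial, venous and lymphatic cells ran from 1302 to 2102, 216 to 481 and 2041 to 3033. Arterial, capillary and venous minus lymphatic cells ran from 1749 to 2857, 2552 to 4419 and 934 to 1103. The member counts are therefore not read as a result about the members. The sign turned for Atf4 by tissue in arterial cells with clusters (-0.25), and, over leaving out either library, for Creb3 by tissue in capillary (-0.60 to 0.032) and lymphatic cells (-0.11 to 0.34) and lymphatic Atf6 by genotype (-0.30 to 0.18). Of the causes, none was tested. Genes called by genotype ranged over the alternatives from 0 to 22 in capillary and 0 to 56 in lymphatic cells, and by tissue from 78 to 331 and 306 to 1076. Venous cells gave no genotype or tissue value with clusters or without library 1. Small HEC, venous and arterial sums and n = 2 pools per group limit what could be detected.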
